A study of Mus musculus with 6 samples.

Results

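The genes of WNT ligands, Frizzled receptors, their co-receptors and antagonists, and the factors that pass the signal on were followed in mouse SC4 cells after knockdown of YAP, the Yap1 product, which switches on genes together with DNA-binding factors. They were chosen by name: each row called Wnt or Fzd followed by a digit, and 20 further named genes. The set held 49 of the 23366 genes listed. Of these, 30 had a mean normalized count of at least 10 over the 6 libraries and were tested, among 12820 genes in all. A normalized count is the number of reads in a gene divided by 1 size factor per library.

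SC4 is a line of mouse schwannoma cells without Nf2, and the control cells share that loss. The cells were transfected with control siRNA or with a Smartpool of siRNAs against YAP, and RNA was collected after 48 hours. There were 3 libraries for each siRNA, numbered 1 to 3, with 18025132 to 60078880 reads in genes. The labels do not state that the libraries of an siRNA came from separate cultures, so a p-value speaks only for the spread among these libraries, which may be technical. In bulk RNA, a lower level per cell and fewer cells with a transcript cannot be told apart.

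WNT proteins are secreted ligands that carry a lipid. They bind Frizzled receptors together with the co-receptors LRP5 and LRP6, which stops a complex of Axin, APC and GSK3 from marking beta-catenin for destruction, and beta-catenin then acts with TCF/LEF factors on target genes. Other WNT signals do not use beta-catenin and act through receptors such as ROR1, ROR2 and RYK on cell polarity and calcium. In peripheral nerve, WNT signalling through beta-catenin is known for its part in the Schwann cell lineage and in myelination.

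Yap1, against which the pool is directed, stood at 4749.6, 5731.7 and 4751.4 normalized counts in control replicates 1, 2 and 3 and at 936, 571 and 475 in knockdown replicates 1, 2 and 3, and its knockdown mean was 13.0% of the control mean. Replicate 1 of both siRNAs stood apart from replicates 2 and 3. Component 1 of a principal component analysis carried 63.5% of the variance, and the places of the libraries along it are not given here. Of the Schwann lineage markers, Mbp, Ngfr, Erbb3, Egr2, Pou3f1, Foxd3 and Cdh19 had a mean of at least 10, while the lineage factor Sox10 and also S100b and Gfap did not. Of 8 fibroblast markers 7 reached that mean, of 6 macrophage markers 4 and of 6 endothelial markers 4; Emr1 (macrophage) and Tie1 (endothelial) were at or near 0. The summed macrophage markers ran from 284 to 343 normalized counts in the control libraries and from 215 to 262 in the knockdown libraries. Of the 4 tested macrophage markers Csf1r was the 1 called, lower, where 8.96% of all genes were. Its control and knockdown means were 161 and 76.2. The others had 129 and 126 (Cd68), 13.3 and 16.3 (Ptprc) and 17.5 and 12.7 (Aif1), without a call. The summed fibroblast markers ran from 274886.8 to 572563.1 in the control libraries and from 221985.6 to 431952.5 in the knockdown libraries. Most of each sum came from the collagen genes Col1a1, Col1a2 and Col3a1. Of the 7 tested, 1 was called higher and 3 lower, against 8.32% and 8.96% of all genes. Dpt was called higher, with means of 75.4 and 267, and Dcn, Col1a1 and Col3a1 lower. Pdgfra (7995.5 and 9060.8) and Thy1 (109.5 and 141) were higher in the mean and Col1a2 lower, without a call. The part of these markers in the results was not tested.

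Differences were tested in limma on the log2(value + 1) scale, with Benjamini-Hochberg adjustment over all 12820 genes, in an unpaired fit and in a paired fit that takes the replicate number as a block. The unpaired fit called 0 of the 30 WNT genes and 0.00% of all genes; 9 of the 30 had an unadjusted p under 0.05, against 12.2% of all genes, and edgeR also called 0 unpaired. DESeq2 called 3 higher unpaired (Fzd3, Sfrp1 and Sfrp2) and 2 lower (Wnt7b and Tcf7l2), where it called 2.57% of all genes higher and 3.11% lower, 5.69% in all. The paired limma fit called 5 of the 30 higher and 2 lower, against 8.32% and 8.96% of all genes. In the following, rose and fell are used of genes with an adjusted p under 0.05 in the paired limma fit. Wnt4, Fzd3, Sfrp1, Sfrp2 and Lef1 rose, and Wnt7b and Tcf7l2 fell. The called share was 23.3% of the 30 and 17.3% of all genes. Sfrp2, Wnt5b and Wnt11 reached a mean of 10 under 1 of the siRNAs only, and among the other 27 genes 4 rose and 2 fell. In 5 genes each knockdown library was above each control and in 4 genes below, where 9.47% and 9.49% of all genes were (19.0% in all). The median log2 difference was −0.07 over the 30 genes and 0.009 over all tested genes. An exact two-sided permutation test of 3 against 3 libraries cannot give a p below 0.1.

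**Figure D1:**
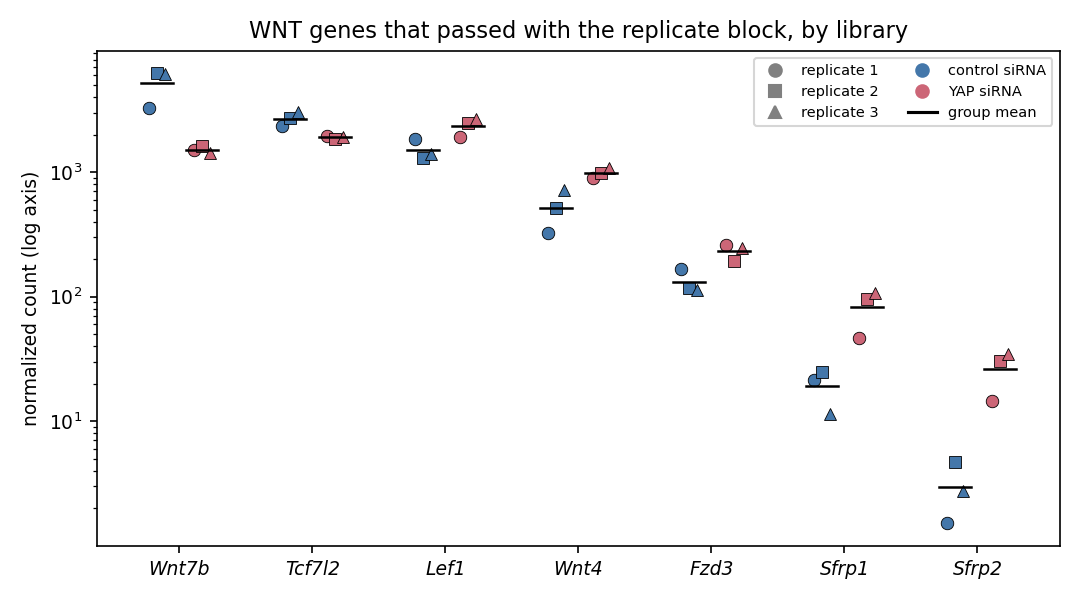
Normalized counts (log axis) of the 7 WNT genes called in the paired fit, in each control siRNA and YAP siRNA library; symbols mark the replicate number and black bars the group means. The groups do not overlap in any of the 7 genes: Wnt7b and Tcf7l2 lie lower with YAP siRNA and the other 5 higher.

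Promoter sequences are shown for Wnt4 and Sfrp2, the called genes for which a single start is listed, so that the letters searched can be seen in their context. RefSeq windows of 250 bases before an annotated start (GRCm38.p6) were at hand for 17 of the 30 tested genes, 25 windows in all. No window was at hand for the called genes Wnt7b, Sfrp1 and Fzd3, so their promoters were not searched. The deposited values were made on mm9, and these coordinates serve the sequences only. Both strands were searched for CTTTGAT, which TCF/LEF factors bind and which reads ATCAAAG on the other strand, and for CATTCC, or GGAATG on the other strand, letters bound by the TEAD factors through which YAP acts; these motifs share no overlap. Of the 25 windows, 2 held CTTTGAT (8%) and 0 held CATTCC, against 3.21% and 12.6% of 32851 windows of all genes. The windows of Wnt4, Sfrp2, Lef1 and Tcf7l2 held neither, which says only that these letters are not in those bases. The Wnt4 window lies at chr4:137277385-137277634 on the plus strand, with a GC content of 85.2%, and the Sfrp2 window at chr3:83766071-83766320 on the plus strand, with 63.6%.
Wnt4: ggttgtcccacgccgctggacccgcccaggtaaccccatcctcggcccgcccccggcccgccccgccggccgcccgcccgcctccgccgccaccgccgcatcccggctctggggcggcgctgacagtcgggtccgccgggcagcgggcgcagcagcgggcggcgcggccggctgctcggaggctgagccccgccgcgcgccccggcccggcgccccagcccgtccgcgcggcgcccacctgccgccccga
Sfrp2: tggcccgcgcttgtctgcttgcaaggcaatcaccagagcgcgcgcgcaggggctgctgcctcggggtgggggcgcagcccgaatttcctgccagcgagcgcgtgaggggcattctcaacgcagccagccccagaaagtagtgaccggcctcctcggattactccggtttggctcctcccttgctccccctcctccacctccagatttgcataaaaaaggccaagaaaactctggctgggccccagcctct

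The windows with CTTTGAT belonged to Wnt11 and Wnt5b, ligand genes that did not pass, and 29 bases around each match are shown along the strand of the gene, with the motif in capitals. The Wnt11 match lies on chromosome 7 and begins 51 bases before 1 of its 2 listed starts, on the strand opposite to the gene. The Wnt5b match lies on chromosome 6 and begins 71 bases before 1 of the 3 starts listed for it.
Wnt11: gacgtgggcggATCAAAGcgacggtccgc
Wnt5b: agtaagtctctCTTTGATctgctccctgt

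Sites with the letters CTACATA in the 3′ UTR are shown because transcripts that carry these letters were lower as a class. The letters had been picked from these same data for that reason, so the difference of the class is a description. By GENCODE M21, 1230 tested genes carried CTACATA, with a median log2 difference of −0.06 and 15.8% called lower in the paired fit. The other 10895 had a median of 0.015 and 8.56% called lower. Of the 30 WNT genes 4 carried it (13.3%, against 10.1% of the tested genes with a 3′ UTR of at least 50 bases). Among the called genes, Tcf7l2, which fell, carries it 40 bases after the stop codon, and Fzd3, which rose, carries it in 2 places of a 3′ UTR of 10270 bases. Whether these sites bear on the values was not tested.
Tcf7l2: aagtgcgttcgCTACATAcaaggtgaagg
Fzd3: gccaacctgagCTACATAgtaagaccgtg
Fzd3: gccaggctgagCTACATAacaagaccctg
Fzd5: tgctttgggggCTACATAatcctcaaatt
Lrp6: gagtggtatagCTACATAtatccatgtgg

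Among the ligands, the gene with the highest level fell and the next highest rose. Wnt7b encodes a ligand known from the development of lung, placenta and brain vessels. It had 3292.9, 6222.8 and 6102.4 normalized counts in control replicates 1, 2 and 3 and 1501.4, 1610.6 and 1413.6 in knockdown replicates 1, 2 and 3. Each knockdown library was below each control, and control replicate 1 was the lowest control. The control mean was 3.45-fold the knockdown mean, and the log2 difference was −1.73 (95% interval −2.12 to −1.34; limma adjusted p = 0.00153 paired and 0.131 unpaired). Between libraries of the same number it was −1.13, −1.95 and −2.11. Wnt7b was the 1 gene of the 7 that also passed when replicate 2 was left out of both groups (limma adjusted p = 0.0104, paired). It did not pass in the paired limma fit without a mean-variance trend (adjusted p = 0.0788).

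Wnt4 encodes a ligand needed for kidney tubules and the female reproductive tract. Its normalized counts were 323, 518 and 717 in control replicates 1, 2 and 3 and 893, 985 and 1079 in knockdown replicates 1, 2 and 3. All knockdown libraries were above all controls. The mean rose from 519 ± 197 to 986 ± 92.9 (SD, n = 3), a log2 difference of 0.99 (95% interval 0.60 to 1.38; limma adjusted p = 0.00800 paired and 0.278 unpaired). Leaving out replicate 2 of both groups gave an adjusted p of 0.0532 in the paired limma fit.

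Per kb of exon (GENCODE M21), Wnt7b and Wnt4 made up most of the Wnt level in each library. Wnt7b held 83.1%, 86.4% and 83.1% of the summed Wnt level per kb in control replicates 1, 2 and 3, and 52.7%, 52.3% and 48.9% in knockdown replicates 1, 2 and 3. Wnt4 held 9.53%, 8.41% and 11.4% in the controls and 36.6%, 37.4% and 43.6% in the knockdown libraries. The ratio of Wnt7b to Wnt4 per kb was 8.72, 10.3 and 7.29 in the controls and 1.44, 1.40 and 1.12 in the knockdown libraries. Wnt7b was above Wnt4 in each of the 6 libraries, by a smaller factor under YAP siRNA. The summed level per kb was 809, 1470.0 and 1499 in the controls and 582, 629 and 589.9 in the knockdown libraries, with no overlap.

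**Figure D2:**
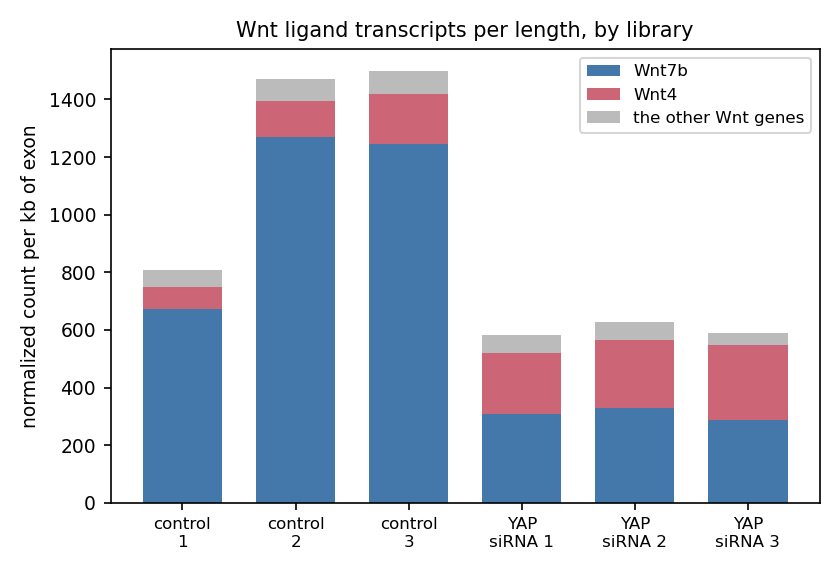
Summed normalized counts per kb of exon of the 19 Wnt genes in each library, split into Wnt7b, Wnt4 and the other Wnt genes. The 3 YAP siRNA libraries lie below each control, and Wnt4 takes 36.6% to 43.6% of the sum there, against 8.41% to 11.4% in the controls.

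The other 5 tested ligands were much lower and did not pass. Wnt5a, the best known ligand of the branch without beta-catenin, had 77.7 ± 5.92 normalized counts in the controls and 66.2 ± 9.25 in the knockdown libraries (SD, n = 3); the groups overlapped, and the 95% interval of the log2 difference was −0.82 to 0.35. Wnt5b, its close paralogue, had 7.59, 35.1 and 41.5 in control replicates 1, 2 and 3 and 6.01, 7.06 and 3.01 in knockdown replicates 1, 2 and 3. The groups did not overlap, but control replicate 1 was near the knockdown libraries, and the log2 difference was −1.95 (limma adjusted p = 0.0843, paired). The paired edgeR fit called Wnt5b lower (adjusted p = 0.0384), and the paired DESeq2 fit did not call it (adjusted p = 0.0723). Wnt7a had 28.6 to 95.6 normalized counts over the 6 libraries and Wnt9a 38.5 to 71.9, with 95% intervals of −0.77 to 0.58 and −0.87 to 0.57. Wnt11 had 0 to 22.1, with 0 in control replicate 1, and the sign of its log2 difference of 0.46 turned with the pseudocount and with edgeR; without replicate 1 of both groups it was −1.09 (limma adjusted p = 0.182, paired).

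The remaining 12 Wnt genes had a mean under 10 and were not tested. Wnt3a, Wnt8b and Wnt9b were at 0 in all 6 libraries, and a count of 0 allows up to 3 reads, or 1.38 to 4.55 normalized counts by library (counting error only). Wnt16 had 3.04, 3.90 and 3.69 normalized counts in control replicates 1, 2 and 3, and 13.1 and 33.1 in knockdown replicates 2 and 3 but a single read in knockdown replicate 1. Wnt1 had 0, 16.4 and 24.4 in the controls and 6.01, 3.03 and 0 in the knockdown libraries. Among Wnt2, Wnt2b, Wnt3, Wnt6, Wnt8a, Wnt10a and Wnt10b the highest value was 17.9, for Wnt3 in control replicate 2.

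Of the Frizzled genes, Fzd3 rose. It encodes a receptor known for axon guidance and planar polarity. Fzd3 had 167, 117 and 113 normalized counts in control replicates 1, 2 and 3 and 259, 195 and 247 in knockdown replicates 1, 2 and 3. The groups did not overlap, and replicate 1 was the highest under both siRNAs. The log2 difference was 0.83 (95% interval 0.38 to 1.28; limma adjusted p = 0.0256 paired and 0.284 unpaired). Its adjusted p was 0.151 without replicate 2 and 0.158 without replicate 3 of both groups in the paired limma fit.

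Fzd4, which encodes a receptor of norrin as well as of WNTs, had 223, 300.1 and 318 normalized counts in control replicates 1, 2 and 3 and 169.5, 204 and 191 in knockdown replicates 1, 2 and 3. All knockdown libraries were below all controls, but the log2 difference of −0.56 missed the threshold (95% interval −0.96 to −0.16; limma adjusted p = 0.0588, paired). The paired edgeR fit called Fzd4 lower (adjusted p = 0.0488), and the paired DESeq2 fit did not call it (adjusted p = 0.0702). Fzd2 had 2198.8, 1994.8 and 3177.5 in the controls and 2852.6, 3112.3 and 3319.9 in the knockdown libraries. Control replicate 3 lay among the knockdown libraries, and the log2 difference was 0.36 (limma adjusted p = 0.0721, paired). When replicate 1 or 3 was dropped from both groups, Fzd2 was called higher (limma adjusted p = 8.6e-04 and 0.0189, paired). Without replicate 2 of both groups Fzd2 was not called (limma adjusted p = 0.518, paired).

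Fzd1, the receptor gene with the highest mean count, differed more by replicate number than by siRNA. It had 1241.3, 3300.4 and 4073.7 normalized counts in control replicates 1, 2 and 3 and 1371.6, 3686.5 and 4013.2 in knockdown replicates 1, 2 and 3. Replicate 1 was the lowest under both siRNAs, and the log2 difference between siRNAs was 0.09 (95% interval −0.12 to 0.31, paired). Fzd5, Fzd6, Fzd7 and Fzd8 had log2 differences from −0.16 to −0.06; their intervals held 0, and the widest, for Fzd8, was −0.47 to 0.26. Fzd9 had 7.59 to 21.1 normalized counts and an interval of −0.76 to 1.61. Fzd10 was at 0 in all 6 libraries.

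Per kb of exon in the controls, Fzd1, Fzd2 and Fzd6 led with mean levels of 684, 671 and 571 normalized counts per kb. Next came Fzd7 at 289, Fzd5 at 96.5, Fzd8 at 52.6, Fzd4 at 41.7, Fzd3 at 10.3 and Fzd9 at 6.03. Fzd1 took 15.4%, 33.0% and 32.8% of the summed Frizzled level per kb in control replicates 1, 2 and 3, so the order of the leading genes changed between libraries. The summed level per kb was 1926, 2380.0 and 2964 in the controls and 1968, 2767 and 2984 in the knockdown libraries, which overlap.

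None of the 3 tested co-receptor genes passed. Lrp6 had 3314.1, 4685.6 and 4439 normalized counts in control replicates 1, 2 and 3 and 3276.9, 4010.4 and 3915.2 in knockdown replicates 1, 2 and 3, with an interval of the log2 difference of −0.35 to 0.06. Lrp5, its partner in the same role, had 2150.2, 5776.2 and 6044.8 in the controls and 2155.4, 3543.2 and 3461.6 in the knockdown libraries. Its libraries numbered 1 were alike, whereas those numbered 2 and 3 were lower under YAP siRNA: the differences within numbers 1, 2 and 3 were 0.00, −0.71 and −0.80 on the log2 scale. The overall difference was −0.50 (95% interval −0.84 to −0.16; limma adjusted p = 0.0521, paired), and the paired fits of edgeR and DESeq2 called Lrp5 lower (adjusted p = 0.0380 in edgeR). Ror1, a receptor for WNT5A, had 108 to 302 normalized counts and an interval of −0.35 to 0.64. Ror2 had 1 read in control replicate 3 and 0 elsewhere.

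The secreted antagonists were low in these cells, and of 3 tested, Sfrp1 and Sfrp2 rose. SFRP proteins share a domain with Frizzled receptors and bind WNTs outside the cell. Sfrp1 had 21.2, 24.9 and 11.5 normalized counts in control replicates 1, 2 and 3 and 46.9, 95.9 and 107 in knockdown replicates 1, 2 and 3. The groups did not overlap, and replicate 1 was the lowest knockdown library. The mean was 4.33-fold higher, a log2 difference of 2.04 (95% interval 1.06 to 3.02; limma adjusted p = 0.0164 paired and 0.210 unpaired).

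Sfrp2 had 1.52, 4.68 and 2.77 normalized counts in the controls, or 1, 6 and 6 reads, and 14.4, 30.3 and 34.7 in the knockdown libraries, or 12, 30 and 23 reads. Each knockdown library was above each control, and the gene met the mean of 10 through the knockdown group alone. Its log2 difference was 2.77 (95% interval 1.44 to 4.11; limma adjusted p = 0.0165 paired and 0.189 unpaired). In the paired limma fit the adjusted p of Sfrp1 and Sfrp2 was 0.106 and 0.155 without replicate 2 of both groups, and 0.0541 and 0.0740 without replicate 3.

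Sfrp4, the antagonist gene with the highest mean, had 30.4, 112 and 179 normalized counts in control replicates 1, 2 and 3 and 30.1, 19.2 and 36.2 in knockdown replicates 1, 2 and 3. Control replicate 1 lay among the knockdown libraries, and the other controls were above them. The log2 difference was −1.59 (limma adjusted p = 0.0554, paired), and −0.01, −2.48 and −2.27 within numbers 1, 2 and 3. The paired fits of edgeR and DESeq2 called Sfrp4 lower (adjusted p = 0.0268 and 0.00720). DKK proteins block LRP5 and LRP6. Dkk2 had 0, 16 and 33 reads in control replicates 1, 2 and 3 and 0 in each knockdown library, where 0 allows up to 3.03 to 4.52 normalized counts. Dkk3 had 1.56 to 18.2 normalized counts over the libraries, Dkk1 had reads in 1 library only, and Sfrp5 had 1 read in all.

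**Figure D3:**
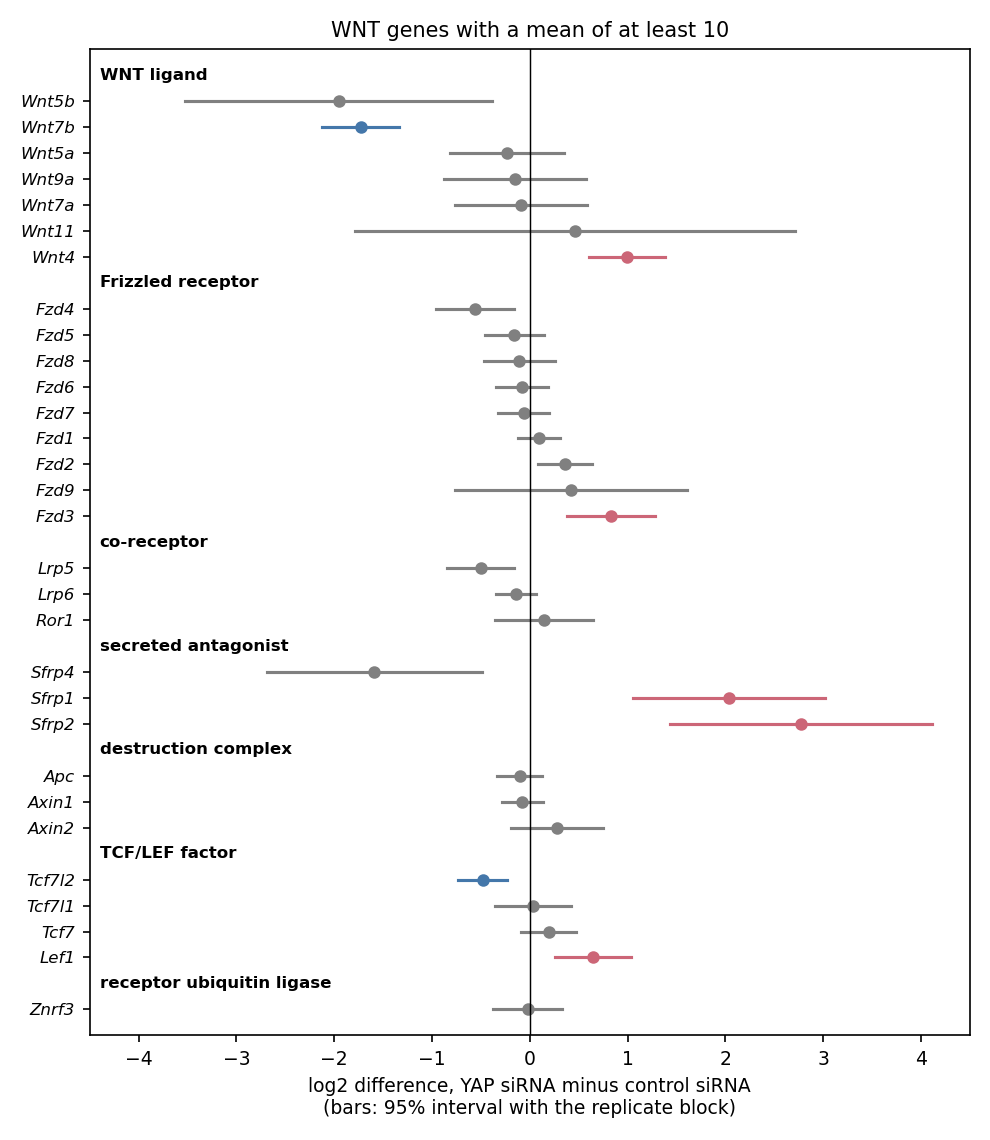
Log2 difference (YAP siRNA minus control siRNA) of the 30 tested WNT genes, grouped by role; points are the differences and bars the 95% intervals of the paired fit. Coloured points mark the 7 called genes; the intervals of the 3 destruction complex genes hold 0.

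None of the 3 destruction complex genes passed. Apc, the tumour suppressor of the complex and its gene with the highest mean count, had 4380.9, 5206.4 and 4993.3 normalized counts in control replicates 1, 2 and 3 and 4753.1, 4498.9 and 4289 in knockdown replicates 1, 2 and 3, with an interval of the log2 difference of −0.33 to 0.12. Axin1, the scaffold, had 2364.8 ± 116 and 2246.2 ± 169 (SD, n = 3) and an interval of −0.28 to 0.13. Axin2 is a scaffold too and a widely used target gene of beta-catenin. It had 85.0, 324 and 347 in control replicates 1, 2 and 3 and 147, 334 and 347 in knockdown replicates 1, 2 and 3. Libraries numbered 2 and 3 were close between the siRNAs, replicate 1 was the lowest of both groups, and the interval was −0.20 to 0.75. Znrf3, a ubiquitin ligase that removes Frizzled receptors, had 546, 979.8 and 1116.4 in the controls and 729.7, 855 and 921 in the knockdown libraries, with an interval of −0.37 to 0.33. Its relative Rnf43 had at most 3.01 normalized counts in any library.

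Of the 4 TCF/LEF genes, Lef1 rose and Tcf7l2 fell. Lef1 had 1842.2, 1288.5 and 1398.4 normalized counts in control replicates 1, 2 and 3 and 1917.4, 2484.6 and 2667.4 in knockdown replicates 1, 2 and 3. The groups did not overlap, but the libraries numbered 1 were close. The log2 difference was 0.65 (95% interval 0.26 to 1.03; limma adjusted p = 0.0352 paired and 0.285 unpaired), and 0.06, 0.95 and 0.93 within numbers 1, 2 and 3. Without replicate 2 of both groups its adjusted p was 0.259 in the paired limma fit.

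Tcf7l2 encodes TCF4, a main partner of beta-catenin. It had 2326.2, 2703.3 and 3043.4 normalized counts in control replicates 1, 2 and 3 and 1967.8, 1850.8 and 1927.5 in knockdown replicates 1, 2 and 3. All controls were above all knockdown libraries. The log2 difference was −0.48 (95% interval −0.73 to −0.23; limma adjusted p = 0.0208 paired and 0.268 unpaired), and its adjusted p was 0.199 without replicate 2 and 0.0964 without replicate 3 of both groups. The ratio of Lef1 to Tcf7l2 counts was 0.792, 0.477 and 0.460 in control replicates 1, 2 and 3 and 0.974, 1.34 and 1.38 in knockdown replicates 1, 2 and 3. Tcf7, which encodes TCF1, had 749.8 ± 101 and 855 ± 81.2 normalized counts (SD, n = 3) and an interval of −0.09 to 0.48. Tcf7l1, which encodes the mostly repressive TCF3, had 297 ± 67.1 and 300.4 ± 49.0 (SD, n = 3) and an interval of −0.36 to 0.42.

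Replicate 1 stood apart in several of these genes. Of the 30, 17 were lower in replicate 1 than in replicates 2 and 3 on average under both siRNAs, and 4 were higher, where 41.0% and 39.9% of all tested genes were. Axin2, Fzd1 and Wnt7a differed by over 2-fold in the same direction under both siRNAs, 3 of the 30, and 13.7% of all genes did. The log2 difference of replicate 1 from the mean of replicates 2 and 3, in control and in knockdown libraries, was −1.97 and −1.21 for Axin2, −1.56 and −1.49 for Fzd1 and 1.03 and 1.02 for Wnt7a.

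**Figure D4:**
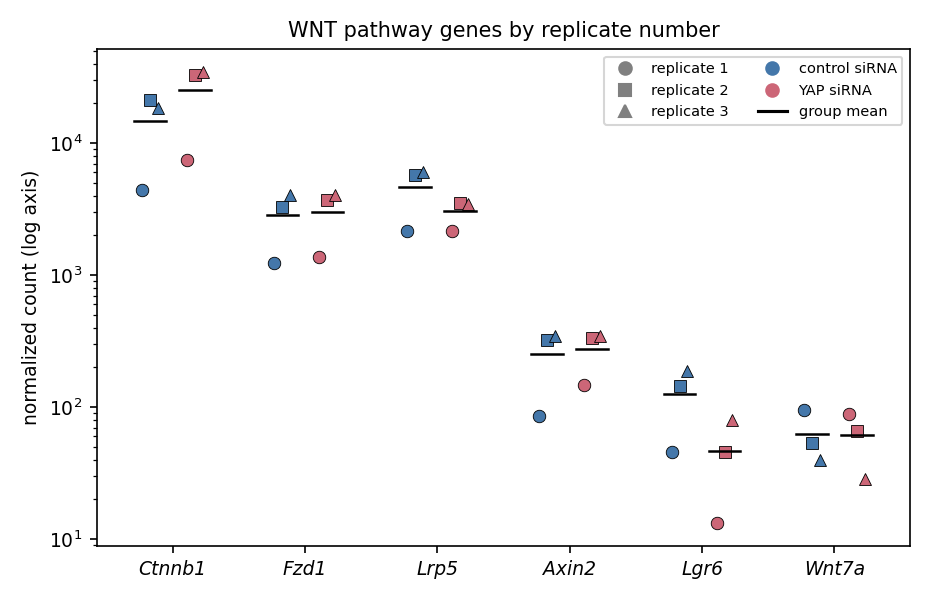
Normalized counts (log axis) of Ctnnb1, Fzd1, Lrp5, Axin2, Lgr6 and Wnt7a in each library; symbols mark the replicate number and black bars the group means. Replicate 1 is the lowest of its group under both siRNAs for each gene but Wnt7a, where it is the highest.

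Other genes of the pathway were taken from 5 lists. Of 98 such genes in the file 76 were tested, of which 6 rose and 13 fell. Of all genes, 8.32% rose and 8.96% fell, and these shares stand beside the counts of each list. The called share was 25.0%, against 17.3% of all genes, and the median log2 difference was −0.11. In the list of WNT secretion and R-spondin receptors, 0 of 7 tested genes rose and 3 fell (median −0.38). Wls carries WNT proteins to the cell surface and went from 10153 ± 3071.5 to 7597.3 ± 1329.3 normalized counts (SD, n = 3; limma adjusted p = 0.0352, paired). Lgr6, an R-spondin receptor gene, ran from 45.5 to 187 in the controls and from 13.2 to 79.9 in the knockdown libraries, a log2 difference of −1.53. Notum, which encodes an enzyme that strips the lipid from WNTs, had a log2 difference of −1.06. The groups overlapped in all 3 genes. Unpaired, leaving out control replicate 1 gave the lowest difference of each; the full ranges without 1 library or 1 number were −0.66 to −0.21 for Wls, −2.14 to −0.83 for Lgr6 and −1.54 to −0.74 for Notum. In the paired limma fit none of the 3 passed without replicate 2 of both groups (adjusted p = 0.307, 0.114 and 0.276). Of other extracellular antagonists and receptors, 1 of 6 tested rose and 0 fell (median −0.06). Ryk, an atypical WNT receptor gene, had 4456.9 ± 471 and 6096.8 ± 153 normalized counts (SD, n = 3), without overlap. Its limma adjusted p was 0.0157 paired and 0.248 unpaired. In the paired limma fit Ryk did not pass without replicate 2 or 3 of both groups (adjusted p = 0.174 and 0.0649).

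Inside the cell, 2 of 27 tested genes of the beta-catenin pathway rose and 2 fell (median −0.11), against 8.32% and 8.96% of all genes. Ctnnb1, the beta-catenin gene, had 4412.7, 21375 and 18533 normalized counts in control replicates 1, 2 and 3 and 7412.2, 33033.1 and 34664.3 in knockdown replicates 1, 2 and 3. The groups overlapped, with replicate 1 far lower under both siRNAs, by log2 differences of −2.17 and −2.19 from replicates 2 and 3. Within numbers 1, 2 and 3 the knockdown library was higher by 0.75, 0.63 and 0.90 on the log2 scale, and the overall difference was 0.76 (95% interval 0.56 to 0.96; limma adjusted p = 0.00212 paired and 0.804 unpaired). Nlk, a kinase gene whose product acts on TCF/LEF factors, and Bcl9, whose product links beta-catenin to cofactors, fell with log2 differences of −1.01 and −0.47. The Bcl9 groups overlapped, with 1220.0 to 2904.2 normalized counts in the controls and 919.6 to 1902.3 in the knockdown libraries (limma adjusted p = 0.0171 paired and 0.748 unpaired). With 1 library left out and unpaired, its difference ran from −0.85 to −0.12, the ends being without control replicate 1 and without knockdown replicate 1, and that of Ctnnb1 ran from 0.04 to 1.49 with the same 2 libraries at the ends. Bcl9 did not pass without replicate 2 or 3 of both groups (limma adjusted p = 0.142 and 0.111, paired). In the planar polarity and calcium list 2 of 17 rose and 2 fell (median −0.22), against the same shares of all genes. The calmodulin kinase gene Camk2g and the polarity cadherin gene Celsr1 fell (−1.26 and −1.57), and Nfatc3, a gene of a calcium-regulated transcription factor, rose (0.79). The Celsr1 groups overlapped, and its difference ran from −2.40 to −0.99 unpaired with those libraries at the ends. Celsr1 did not pass without replicate 2 or 3 of both groups (limma adjusted p = 0.162 and 0.215, paired). The Nfatc3 groups overlapped too (limma adjusted p = 0.00954 paired and 0.36 unpaired). Without replicate 2 of both groups Nfatc3 did not pass (limma adjusted p = 0.0680, paired).

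Of genes often listed as beta-catenin targets, 1 of 20 tested rose and 7 fell (median −0.14), Notum counted here as well. Of all genes, 8.32% rose and 8.96% fell. Wisp2, of the CCN family, had 53.1, 182 and 183 normalized counts in control replicates 1, 2 and 3 and 303, 1182.7 and 1044.4 in knockdown replicates 1, 2 and 3, with no overlap. Its log2 difference was 2.56 (limma adjusted p = 4.5e-04 paired and 0.247 unpaired). The urokinase receptor gene Plaur and the transcription factor gene Sox9 fell (−0.93 and −0.66).

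Most calls were lost without replicate 2. Left out of both groups, it left 0 of the 30 WNT genes higher and 1 lower in the paired limma fit, where 0.959% and 1.38% of all genes were called (2.34% in all). Without replicate 3 there were 3 higher and 1 lower (4.20% and 4.60% of all genes, 8.80% in all), and Wnt4, Wnt7b and Lef1 kept their call. Without replicate 1 of both groups, the unpaired fit called all 7 in the same direction, among 5 higher and 6 lower (14.9% and 16.4% of all genes, 31.3% in all). That last setting was chosen after the data were seen.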

How the data were processed

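The data are RNA sequencing of 6 libraries, 3 with control siRNA and 3 with YAP siRNA. The submitters' processing notes name TopHat2 2.0.9, HTSeq 0.6.1, DESeq 1.14.0 and mm9; annotation and strand setting are not given there, so reads of antisense genes cannot be told apart.

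The deposited values are a signal: gene counts that the authors divided by 1 size factor per library. All were whole multiples, within 0.01 reads, of the value of 1 read (0.461 to 1.52), so reads were recovered for edgeR 4.0.16 and DESeq2 1.42.0. Libraries of the same group differed beyond sampling noise (chi-square per degree of freedom 8.18 to 292).

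The main test was limma 3.58.1 (R 4.3.3) on log2(value + 1) with a mean-variance trend, two-sided, with Benjamini-Hochberg adjustment over the 12820 genes of mean 10 or more. Deviations from the group means correlated at 0.788, 0.705 and 0.532 between libraries of the same number, each over 0.1, so by rule the numbers count as pairs. The pairing comes from that check, not from a label; libraries 2 and 3 of different groups correlated at 0.516 and 0.552 too, so it shows mainly that replicate 1 deviates. The text takes its calls from the fit with that block.

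Members and lists were chosen with earlier results of these data known. Every tested member is named; values per library are given for called members and the highest of each role, and for others chosen after their values were seen. Of each list up to 3 called genes of smallest p are named, with Yap1 and Ctnnb1. Some Schwann lineage markers are not reported here. The fits were also run on simulated data. There, libraries of the same number were given a shared level per gene, so that run cannot test the pairing. Exon lengths and 3′ UTRs (at least 50 bases) are from GENCODE M21. Other pseudocounts, filters, scalings and left-out libraries were tried.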

Additional observations from a re-analysis of the deposited data

How the results depend on the processing

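Numbers of genes called higher and lower are given for all genes, the WNT genes and the other pathway genes. Unpaired with all libraries, the counts were 0 in limma under each pseudocount, filter, scaling and trend setting tried and in edgeR, and 330 and 399, 3 and 2, 2 and 4 in DESeq2. With the replicate block they were 1067 and 1149, 5 and 2, 6 and 13; 1053 and 1137, 5 and 2, 6 and 13 at a pseudocount of 0.5 and 1072 and 1163, 5 and 2, 6 and 14 at 10. With the block they were 1000 and 1137, 5 and 3, 6 and 11 with no filter and 1049 and 1103, 4 and 2, 6 and 12 at a mean of 50. They were 1225 and 1027, 5 and 2, 8 and 11 with one total per library and 1167 and 1182, 5 and 4, 8 and 15 with quantile scaling. They were 1190 and 1289, 5 and 6, 7 and 15 in edgeR and 1182 and 1308, 5 and 4, 6 and 17 in DESeq2, both with all 7 WNT genes in the same direction. Without a trend they were 12 and 18, 1 and 0, 1 and 0, with Sfrp2 the WNT gene called. Leaving out replicate 1, 2 or 3 of both groups with the block gave 2804 and 2792, 6 and 7, 16 and 30, then 123 and 177, 0 and 1, 2 and 4, then 538 and 590, 3 and 1, 3 and 8. Without replicate 1 of both groups and unpaired, a setting chosen after seeing the data, they were 1912 and 2106, 5 and 6, 10 and 23. Leaving out control replicate 1 gave 192 and 305, 0 and 2, 1 and 5, and YAP siRNA replicate 1 3 and 5, 0 and 0, 0 and 0; leaving out any other single library gave 0.

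The Yap1 log2 fold change passed in DESeq2 unpaired (−2.94) and, with the replicate block, at −3.00 (no filter, mean of 50 and quantile scaling alike), −2.997 (pseudocount 0.5 and DESeq2), −2.98 (pseudocount 10), −2.97 (one total) and −2.99 (edgeR). It did not pass with the block and no trend (−3.00, limma adjusted p = 0.0604). Without replicates 1, 2 and 3 of both groups it was −3.32, −2.83 and −2.83 paired, and −3.28 to −2.79 without single libraries, passing at −3.04 when control replicate 1 was dropped and −3.28 when YAP siRNA replicate 1 was. None of the 7 called WNT genes changed sign under any setting. Of the uncalled, the Wnt11 log2 fold change turned to −0.074 at a pseudocount of 10, paired or not, and to −0.49 unpaired and −0.30 paired in edgeR, and the Znrf3 log2 fold change to 0.008 with one total. Leaving out 1 library moved Wnt11 over −0.97 to 1.30, Wnt7a −0.43 to 0.37, Wnt9a −0.33 to 0.056, Fzd1 −0.43 to 0.59, Fzd5 −0.50 to 0.093, Fzd6 −0.15 to 0.030, Fzd7 −0.14 to 0.028, Fzd8 −0.31 to 0.079, Fzd9 0.071 to 0.63, Ror1 −0.29 to 0.45, Axin2 −0.38 to 0.68, Tcf7l1 −0.17 to 0.14 and Znrf3 −0.33 to 0.18. Without replicate 1 of both groups, paired or not, signs turned for Wnt11 (−1.09), Fzd6 (0.070), Fzd7 (0.012), Fzd9 (−0.022), Ror1 (−0.10) and Tcf7l1 (−0.081). Paired, they turned for Znrf3 without replicate 2 of both groups (0.070), and without replicate 3 for Znrf3 (0.11), Wnt7a (0.089), Wnt9a (0.080) and Tcf7l1 (−0.006). The cause was not tested.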
